A study of Homo sapiens with 6 samples.

Results

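The 10 genes described here encode the subunits of the CCT chaperonin (TCP1, CCT2, CCT3, CCT4, CCT5, CCT6A, CCT7 and CCT8) and the mitochondrial chaperonin pair HSPD1 (Hsp60) and HSPE1 (Hsp10). They were chosen by gene symbol, and each had its own row among the 60605 genes of the table. All 10 were among the 14748 genes that passed the filter on low counts. RNA was sequenced from MDA-MB-231, a mesenchymal triple-negative breast cancer cell line, to ask how expression changes when the pseudouridine synthase PUS1 is lowered. There were 3 libraries from cells with a negative control short hairpin RNA (shControl) and 3 from cells with a hairpin against PUS1 (shPUS1). Per the study's methods, hairpins were delivered by lentivirus from a puromycin-resistant pLKO.1 vector, and infected cells were selected with puromycin. The 3 shPUS1 columns share 1 knockdown name, so a second hairpin against PUS1 is not analysed here. The labels call the libraries biological replicates without saying whether each came from a separate infection, so the p-values measure the spread between these libraries. The libraries held 14241505 to 19625998 estimated counts.

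Chaperonins are ring-shaped machines that enclose an unfolded protein in a chamber and let it fold there, using ATP. CCT works in the cytosol on actin, tubulin and a set of other clients, and each of its rings holds 1 copy of each of 8 related subunits. Hsp60 forms the ring of the mitochondrial matrix, and Hsp10 is the lid that closes it. Both mitochondrial proteins are made from nuclear genes and imported.

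HSPD1 and HSPE1 lie head to head on chromosome 2, and their promoter sequences are shown because this shared stretch is a known feature of the pair. The table lists HSPD1 at chr2:197486584-197516737 on the minus strand and HSPE1 at chr2:197500140-197503449 on the plus strand, without naming a genome build. RefSeq promoter windows, from 250 bases before to 50 bases after a start site, were available in the GRCh38.p14 build for 9 of the 10 genes, as 12 windows. All 12 start sites fell inside the span that the table lists for the gene. The HSPE1 start site lay 105 bases from the upstream and 539 bases from the downstream start site of HSPD1. The windows of HSPE1 (chr2:197500129-197500428, plus strand) and of the downstream HSPD1 start (chr2:197499791-197500090, minus strand) read as follows, 5′ to 3′. Capitals mark an E-box (CACGTG) in the first and a heat shock element in the second.
HSPE1: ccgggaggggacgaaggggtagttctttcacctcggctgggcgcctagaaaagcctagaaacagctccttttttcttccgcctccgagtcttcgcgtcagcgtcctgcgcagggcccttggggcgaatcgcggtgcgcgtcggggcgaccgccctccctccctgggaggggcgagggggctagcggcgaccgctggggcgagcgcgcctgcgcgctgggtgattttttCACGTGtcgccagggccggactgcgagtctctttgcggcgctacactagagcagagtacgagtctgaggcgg
HSPD1: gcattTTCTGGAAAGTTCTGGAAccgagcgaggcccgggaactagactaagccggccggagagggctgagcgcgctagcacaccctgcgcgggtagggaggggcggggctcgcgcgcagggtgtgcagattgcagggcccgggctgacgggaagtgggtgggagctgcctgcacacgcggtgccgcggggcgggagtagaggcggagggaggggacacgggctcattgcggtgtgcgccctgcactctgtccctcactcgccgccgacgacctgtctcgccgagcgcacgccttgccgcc

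The E-box at positions -22 to -17 of the HSPE1 window was also inside the window of the upstream HSPD1 start, since both windows share 204 bases. The letters CACGTG, which read the same on both strands, were in 7.26% of all 35116 promoter windows and in none of the 9 windows of CCT genes. The heat shock element ran from -245 to -228. It was found with the letters TTCNNGAANNTTC or GAANNTTCNNGAA, 2 patterns that are each other's reverse complement and that overlap here. These letters were in 0.49% of all windows, and among the 9 members with a window HSPD1 was the one with a match. This depends on the window's edge. The element lies at chr2:197500068-197500085, between the downstream HSPD1 start site and the HSPE1 start site. The HSPE1 window begins just after it, at 197500129. The shorter form TTCNNGAA or GAANNTTC, which the longer one contains, was in 13.5% of all windows and also in windows of TCP1, CCT2 and CCT4. A match describes letters and not a bound site.

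PUS1 was measured first, as a check of the labels. It had 14.5, 27.5 and 12.1 CPM (counts scaled to a common library total with TMM factors) in the shControl libraries and 6.57, 5.47 and 5.37 CPM in the shPUS1 libraries. The groups did not overlap, and the log2 fold change was -1.64 with a standard error of 0.32 and an adjusted p of 0.0462 by the quasi-likelihood test of edgeR. The shControl replicate 2 library was the highest for PUS1. Without it the log2 fold change was -1.20 with an adjusted p of 0.00311. PUS1 was lower in all 14 other fits but missed the threshold in 7, with adjusted p up to 0.253.

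This library stood apart from the others in more than PUS1. Its mean correlation of log2 CPM with the libraries of its group was 0.9513 across genes, against 0.9658 and 0.9665 for shControl replicates 1 and 3. A fit that weights libraries by their fit to the model, which was added after the data were seen, gave it a weight of 0.101, the lowest of the 6. It was the highest of the 6 libraries for 9 of the 10 chaperonin genes and for 34.4% of all tested genes. The fold change of each chaperonin gene below is therefore given with and without it. Of 12 cell type markers 7 were tested and 0 were called in edgeR, with 4 at an unadjusted p under 0.05 (25.5% of all tested genes in either direction). DESeq2 called 3 of them (12.3% of the genes to which it gave an adjusted p), as did edgeR without shControl replicate 2 (18.6%). Markers of the cell line were present, with VIM (vimentin) at 447 ± 49.0 FPKM (SD, n = 3) in shControl and 311 ± 26.3 in shPUS1. CD44 was at 93.5 and KRT18 at 70.5 mean FPKM in shControl, while ERBB2 was at 6.26. ESR1 was at 0.0167 mean FPKM in shControl and PGR was listed at 0. The leukocyte marker CD3E was listed at 0 in both groups, and PTPRC was at 0.01 mean FPKM in shControl. The fibroblast marker DCN was at 0.00667 and 0.01 mean FPKM in shControl and shPUS1, and the endothelial marker PECAM1 at 0.333 and 0.390. COL1A1, a collagen chain that mesenchymal tumour cells can also express, was at 1.57 ± 0.812 FPKM in shControl and 3.29 ± 0.212 in shPUS1. Whether the differences in VIM and COL1A1 have a part in the chaperonin values was not tested.

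HSPD1, the mitochondrial Hsp60, showed the largest difference of the 10 genes. Its levels were 511, 728 and 375 CPM in shControl and 281, 290 and 317 CPM in shPUS1. Every shPUS1 library was lower than every shControl library, and shControl replicate 3 came nearest to them. The mean was 538 ± 178 CPM in shControl and 296 ± 18.5 CPM in shPUS1 (SD, n = 3 each). The log2 fold change was -0.86 with a 95% interval from -1.39 to -0.34, a difference of -45.0%. Its unadjusted p of 0.00535 became 0.0782 after Benjamini-Hochberg adjustment across all genes with edgeR, so it did not pass 0.05.

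HSPD1 did pass that threshold in 5 of 14 other fits, and its log2 fold change was negative in all 14, from -1.07 to -0.59. Without shControl replicate 2 it was -0.59 (95% interval -0.90 to -0.28) with an adjusted p of 0.0208, and this fit called 8.79% of all tested genes lower. DESeq2, the tool the study used, gave an adjusted p of 0.00867 and called 5.31% lower. Adjusted p was 0.0108 without a filter on low counts, 0.0453 without shControl replicate 3 and 0.00462 with weighted libraries, fits that called 1.95%, 1.05% and 9.48% of genes lower. Leaving out shControl replicate 1 raised it to 0.128, and leaving out a shPUS1 library raised it to between 0.219 and 0.299. Each of those fits called 0 of all tested genes lower. The fits disagree on the call and not on the sign.

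HSPE1, which encodes the Hsp10 lid, had 97.1, 148 and 73.0 CPM in shControl and 72, 66.6 and 81.6 CPM in shPUS1. The groups overlapped, because shControl replicate 3 was below shPUS1 replicate 3. Its log2 fold change was -0.53 (95% interval -1.09 to 0.04) with an adjusted p of 0.220 in edgeR. It was -0.22 (-0.55 to 0.11) without shControl replicate 2.

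**Figure D1:**
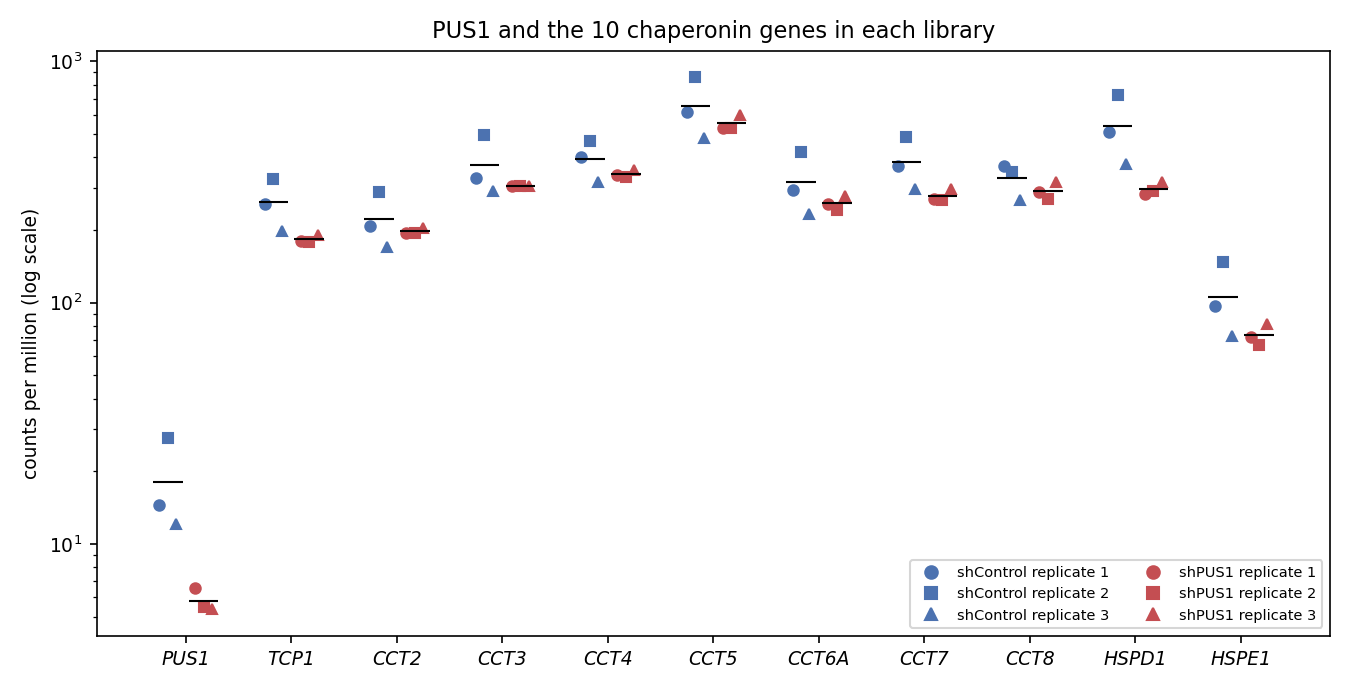
CPM on a log axis for PUS1 and the 10 chaperonin genes, with 1 point per library (blue shControl, red shPUS1, shapes for replicates 1 to 3) and a black line at each group's mean. The blue square, shControl replicate 2, is the highest point for PUS1 and for every chaperonin gene except CCT8, and the groups do not overlap for PUS1, TCP1, CCT7 and HSPD1.

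Among the CCT subunits, TCP1 and CCT7 were the ones whose groups did not overlap. TCP1, the subunit that gave the family its name, had 257, 327 and 198 CPM in shControl and 180, 178 and 191 CPM in shPUS1. Its highest shPUS1 library lay just under its lowest shControl library. The log2 fold change was -0.51 (95% interval -0.93 to -0.09), with an adjusted p of 0.136 in edgeR. It was -0.32 (-0.60 to -0.05) without shControl replicate 2, with an adjusted p of 0.0959.

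CCT7 had 369, 485 and 295 CPM in shControl and 268, 267 and 295 CPM in shPUS1, so shPUS1 replicate 3 nearly met shControl replicate 3. Its log2 fold change was -0.47 (95% interval -0.89 to -0.05), with an adjusted p of 0.163 in edgeR. It was -0.27 (-0.54 to -0.01) without shControl replicate 2, with an adjusted p of 0.137. The fit with weighted libraries called both, at adjusted p of 0.0319 for TCP1 and 0.0484 for CCT7.

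The other 6 subunits overlapped between the groups, and their log2 fold changes lay between -0.29 and -0.16. CCT5, which had the most counts, had 618, 859 and 481 CPM in shControl and 531, 528 and 600 CPM in shPUS1. All 3 shPUS1 libraries lay inside the shControl range, and the log2 fold change was -0.24 (95% interval -0.71 to 0.23). Without shControl replicate 2 it was 0.0016 (-0.28 to 0.29). CCT3 had 330, 495 and 289 CPM in shControl and 304, 305 and 304 CPM in shPUS1, which again lay inside the shControl range. Its log2 fold change went from -0.29 to -0.03 without that library. CCT6A did the same, from -0.29 to -0.03, with 293, 423 and 233 CPM against 257, 243 and 277 CPM.

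CCT2 had 208, 287 and 170 CPM in shControl and 195, 195 and 204 CPM in shPUS1. Its log2 fold change changed sign without shControl replicate 2, from -0.16 to 0.06 (95% interval -0.19 to 0.31). CCT4 had 400, 466 and 315 CPM against 338, 332 and 355 CPM. Leaving out that library moved its log2 fold change from -0.21 to -0.07. CCT8 had 368, 347 and 267 CPM in shControl and 287, 269 and 317 CPM in shPUS1. It was the one member for which shControl replicate 1 was highest. Its log2 fold change was -0.17 with all libraries and -0.13 (-0.46 to 0.20) without shControl replicate 2. It was -0.08 without shControl replicate 1 and -0.30 without shControl replicate 3.

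In edgeR, 0 of the 10 members had an adjusted p under 0.05, against a background of 0.841% of all tested genes called lower. At an unadjusted p under 0.05, 3 members were lower (HSPD1, TCP1 and CCT7), against 12.8% of all tested genes. DESeq2 called HSPD1 alone. The same 3 genes were those lower without overlap between the groups, against 17.3% of all tested genes (36.1% in either direction). An exact two-sided permutation test of 3 against 3 libraries cannot go below p = 0.1, the value each of these genes reached. All 10 log2 fold changes were negative with all libraries, with a median of -0.29 against -0.03 over all tested genes. Without shControl replicate 2, 8 were negative and the median was -0.10, against -0.02. In bulk RNA, less RNA per cell and a different mix of cells cannot be told apart.

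**Figure D2:**
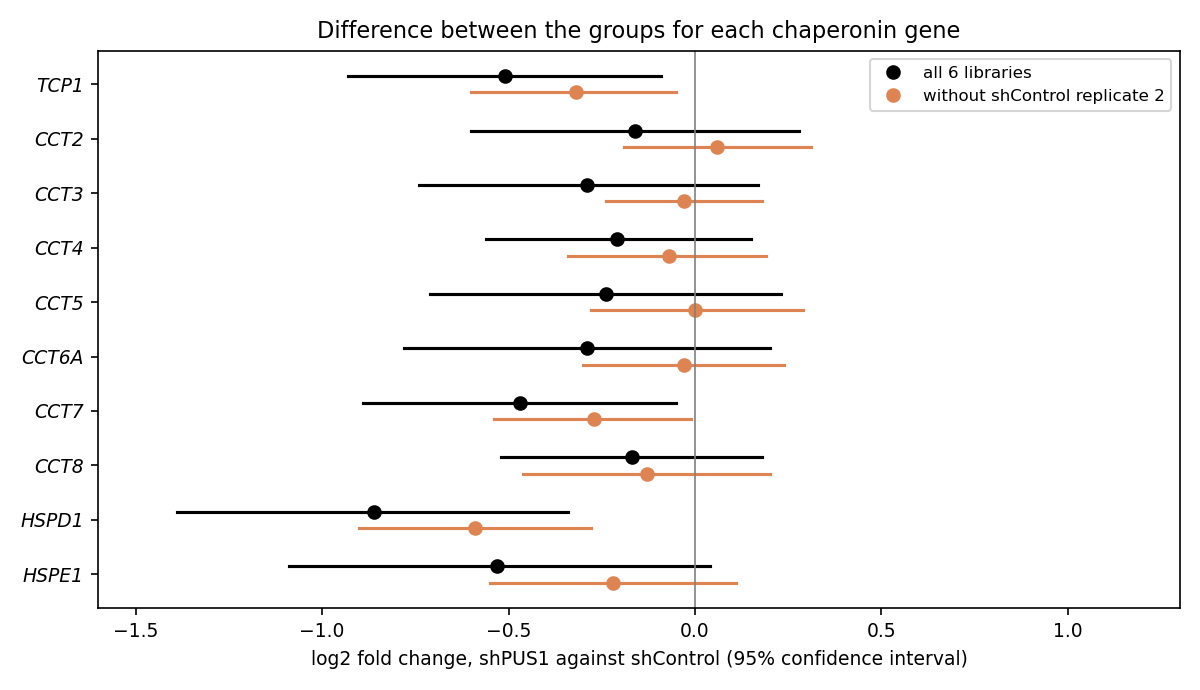
Log2 fold change of shPUS1 against shControl for each chaperonin gene, with its 95% confidence interval as a line, in black for all 6 libraries and in orange without shControl replicate 2. Most points move toward 0 when that library is left out, and the orange intervals of HSPD1, TCP1 and CCT7 stay below 0.

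Levels between genes were compared per length, as FPKM. In shControl the order was CCT4 at 146 ± 24.0 FPKM (SD, n = 3), CCT5 at 116 ± 30.3, CCT7 at 107 ± 23.4, CCT8 at 98.4 ± 15.1 and CCT3 at 96.1 ± 25. Then came CCT6A at 82.3 ± 22.5, HSPD1 at 70.6 ± 21.2, HSPE1 at 58.1 ± 19.0, TCP1 at 53.5 ± 11.6 and CCT2 at 52.5 ± 12.5. CCT4 and CCT5 differed by 30.4 FPKM, just above the larger of their SDs (30.3), and the neighbours further down differed by less than theirs. CCT4 was the highest subunit in all 6 libraries, while the lowest was CCT2 in 2 libraries and TCP1 in the other 4. In shPUS1 HSPD1 stood at 38.5 ± 2.44, HSPE1 at 39.9 ± 4.05 and TCP1 at 37.1 ± 1.37 FPKM, the lowest 3.

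The order depends on the length used. The table gives HSPD1 an exonic length of 7629 bases, while its principal transcript in GENCODE 29 has 2455. Per principal transcript length, an alternative added after the data were seen, HSPD1 came first in shControl at 219 ± 65.8. CCT7 came next at 200 ± 43.8, a gap below their SDs, and CCT4 came sixth at 157 ± 25.8. In shControl replicate 3 CCT7 stood above HSPD1 (159 against 157). In shPUS1 HSPD1 stood at 120 ± 7.59, below CCT3, CCT4, CCT5, CCT7 and CCT8 (134 to 149). Ratios within 1 gene do not change with this choice.

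The CCT subunits were not equal in level, although the finished ring holds 1 of each. The highest subunit stood at 2.58 to 3.01 times the lowest in shControl and at 3.36 to 3.4 times in shPUS1. Per principal transcript length this ratio was smaller, at 1.89 to 1.94 in shControl and at 2.01 to 2.14 in shPUS1, and the highest subunit was CCT7 in shControl and CCT5 in shPUS1. Expressed as a share of the mean FPKM of the 8 subunits in the same library, TCP1 was at 0.574, 0.572 and 0.560 in shControl and 0.484, 0.489 and 0.479 in shPUS1. CCT7 was at 1.12, 1.15 and 1.13 in shControl and 0.982, 0.997 and 1.01 in shPUS1. The groups did not overlap for either subunit, and shControl replicate 2 lay close to its group on this scale. CCT2 was at 0.537, 0.580 and 0.553 in shControl and 0.606, 0.620 and 0.591 in shPUS1, with no overlap in the other direction. On this scale, relative to the mean CCT subunit, 28.7% of all tested genes had groups that did not overlap in either direction, so 3 of 8 subunits lie near the background. Since these values are parts of 1 mean, a lower share of 1 subunit raises the others. The summed CCT genes were at 2842, 3689 and 2248 CPM in shControl and 2359, 2318 and 2542 CPM in shPUS1, which overlapped.

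The 2 mitochondrial genes also differed in balance. The ratio of HSPE1 to HSPD1 in FPKM was 0.795, 0.847 and 0.815 in shControl and 1.07, 0.960 and 1.08 in shPUS1, without overlap. Per principal transcript length it was 0.491, 0.523 and 0.503 in shControl and 0.662, 0.593 and 0.666 in shPUS1. HSPD1 relative to the mean CCT subunit was 0.730, 0.816 and 0.678 in shControl and 0.485, 0.511 and 0.509 in shPUS1. Per principal transcript length it was 1.42, 1.58 and 1.32 in shControl and 0.950, 0.999 and 0.997 in shPUS1, so the separation of the groups held while the level depended on the length. HSPD1 was also set against HSPA9, the mitochondrial Hsp70 that works before Hsp60 on imported proteins. That ratio, in CPM, was 1.07, 1.11 and 0.960 in shControl and 0.552, 0.597 and 0.580 in shPUS1. HSPA9 itself had 478, 657 and 390 CPM in shControl and 509, 486 and 547 CPM in shPUS1, with a log2 fold change of 0.01 (95% interval -0.42 to 0.45). Leaving out shControl replicate 2 gave 0.24 (-0.02 to 0.49). Among all tested genes the groups did not overlap in either direction for 62.9% relative to HSPD1 in FPKM and for 24.7% relative to HSPA9 in CPM, so the separation of HSPE1 from HSPD1 is common among genes. The last 2 ratios were chosen after values had been seen. No ratio was tested. In each of the 3, shControl replicate 2 was the highest shControl library.

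**Figure D3:**
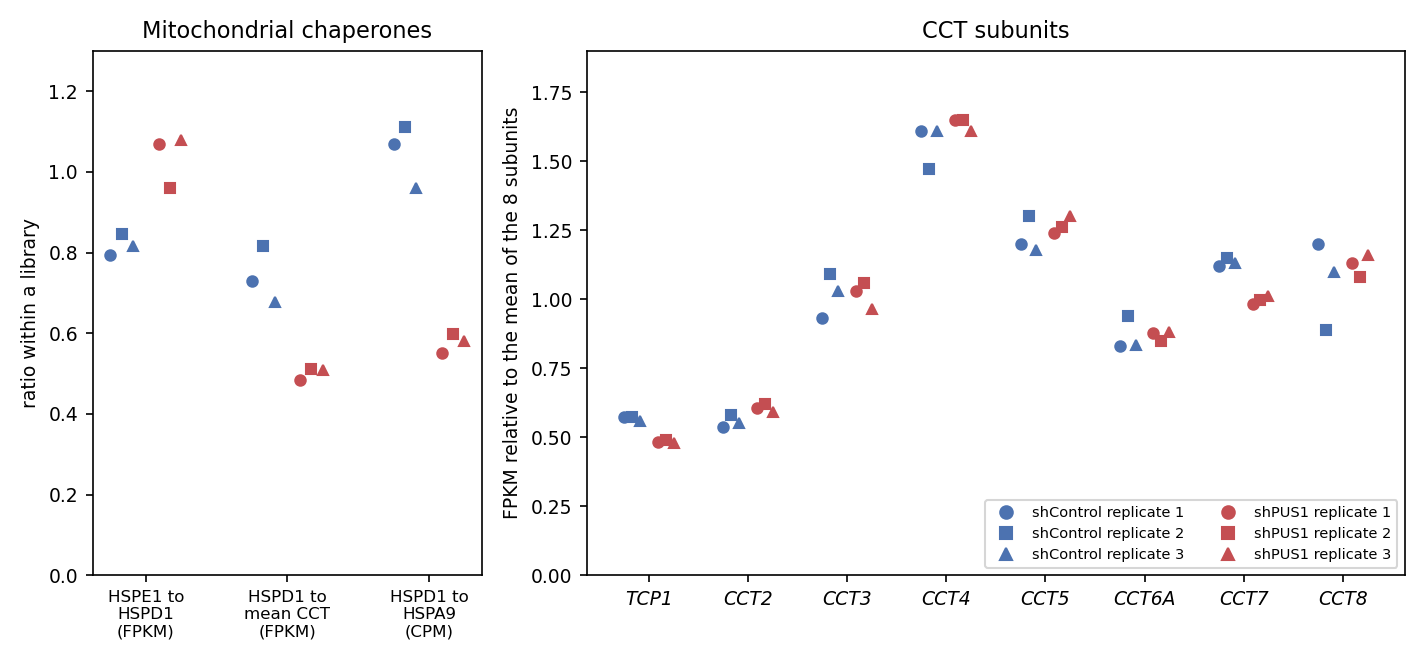
Ratios within each library, with 1 point per library (blue shControl, red shPUS1), for the mitochondrial chaperones on the left and for each CCT subunit relative to the mean of the 8 subunits on the right. The blue and red points separate for all 3 ratios on the left and for TCP1, CCT2 and CCT7 on the right, as they do for 24.7% to 62.9% of all tested genes on these scales.

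The rest of the folding machinery was read from 11 further lists, of which 73 of 76 genes were tested. TBCE had 2 rows and was left out, and CCT8L2 and PDCL2 were listed at 0. In edgeR 2 of the 73 were called higher, against 1.74% of all tested genes, and 1 was called lower, against 0.841%. Their median log2 fold change was -0.09. Without shControl replicate 2 these counts were 6 and 5, against 9.80% and 8.79% of all tested genes, and the median was -0.02. That fit called ACTB, TUBB2A, FZR1, CCNE1, HSPA1A and HSPH1 higher and BBS10, TUBB3, TRAP1, HSP90AA1 and HSPB1 lower. For the lists below, the share of all tested genes in either direction was 2.58% called by edgeR and 25.5% at an unadjusted p under 0.05. DESeq2 called 12.3% of the 13913 genes to which it gave an adjusted p. The share called by edgeR was 18.6% without shControl replicate 2.

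The 3 called genes were HSPH1, TUBB2A and HSP90AA1. HSPH1, a cytosolic Hsp110 that exchanges nucleotide on Hsp70, had 184, 206 and 144 CPM in shControl and 384, 456 and 438 CPM in shPUS1. The groups lay far apart, with a log2 fold change of 1.26 (SE 0.16, adjusted p of 0.0220 in edgeR). TUBB2A, a beta tubulin and so a CCT client, rose from 27.5 ± 2.63 to 44.9 ± 4 CPM (SD, n = 3 each). On the log2 scale it rose by 0.71, with an adjusted p of 0.0467 in edgeR. Reads could be shared with its close copy TUBB2B, which had 14 to 37 counts a library against 363 to 838 for TUBB2A. HSP90AA1, the inducible cytosolic Hsp90, fell from 1865 ± 283 to 1093 ± 92.2 CPM. Its log2 fold change was -0.77 with an adjusted p of 0.0445 in edgeR. HSPH1 and HSP90AA1, both cytosolic heat shock proteins, thus passed the test in opposite directions, and the median of the 12 genes of that list was -0.01. These calls were not stable: HSPH1, TUBB2A and HSP90AA1 missed the threshold in 5, 6 and 5 of 14 other fits, with adjusted p up to 0.184, 0.244 and 0.253. Each was lost under the replicate block and when shControl replicate 1 or any shPUS1 library was left out. Over all tested genes the block called 18, against 380 without it, and leaving out shControl replicate 1 called 11. Leaving out shPUS1 replicate 1, 2 or 3 called 11, 6 and 0, so few genes of any kind were called in these fits. Of the cytosolic heat shock proteins 6 of 12 had an unadjusted p under 0.05. DESeq2 called 3, with HSPB1 (-0.51, adjusted p of 0.0382) beside HSPH1 and HSP90AA1. With shControl replicate 2 left out the median was 0.11 and 4 were called.

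Of the client tubulins and actins 1 of 13 was called, TUBB2A, and the most abundant member, ACTB, had a log2 fold change of 0.09. An unadjusted p under 0.05 was found for 2. DESeq2 called 2, TUBB2A and, in the other direction, TUBB3 (-0.83, adjusted p of 0.0064). Without shControl replicate 2 edgeR called 3, with ACTB at 0.31 and an adjusted p of 0.0488. Among 10 other CCT clients 0 were called in edgeR and 1, FZR1, by DESeq2, with 2 at an unadjusted p under 0.05. GNB2, a G protein beta subunit and the most abundant of them by mean FPKM over all 6 libraries, was at -0.06. CDC20, a mitotic activator, was higher than GNB2 in shControl (86.3 against 83 mean FPKM) and was named after its values were seen. Its log2 fold change was -0.50 with an adjusted p of 0.184 in edgeR, or -0.22 without shControl replicate 2. CCT receives these clients partly from prefoldin, of which 0 of 6 subunits were called and 1 had an unadjusted p under 0.05, with PFDN2 at 0.05. The phosducin-like cofactors had 0 of 3 called and 0 at an unadjusted p under 0.05, with TXNDC9 at -0.24 (-0.02 without shControl replicate 2). The tubulin cofactors that take tubulin after CCT had 0 of 4 called and 1 at an unadjusted p under 0.05, with TBCA at -0.10. Of the chaperonin-like proteins of the Bardet-Biedl complex 0 of 3 were called and 0 had an unadjusted p under 0.05, with MKKS at -0.35 (-0.16 without that library). DESeq2 also called 0 genes of these 4 lists. CCT6B, the testis-type copy of CCT6A, was near absent at 0.0867 and 0.143 mean FPKM.

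In mitochondria the list of the Hsp70 system, which also held the mitochondrial Hsp90 TRAP1, had 0 of 7 called. The 1 gene at an unadjusted p under 0.05 was TRAP1, at -0.38. The most abundant gene of the list, HSPA9, is described above. The quality control proteases had 0 of 9 called and 1 at an unadjusted p under 0.05, and their most abundant member, YME1L1, was at 0.06. Among the stress transcription factors 0 of 5 were called and 1 had an unadjusted p under 0.05, and ATF4 was at 0.42 (95% interval -0.07 to 0.90), or 0.22 without shControl replicate 2. DESeq2 called 0 genes of these 3 lists. The most abundant cytosolic heat shock gene, HSP90AB1, was at -0.39 with an adjusted p of 0.159.

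**Figure D4:**
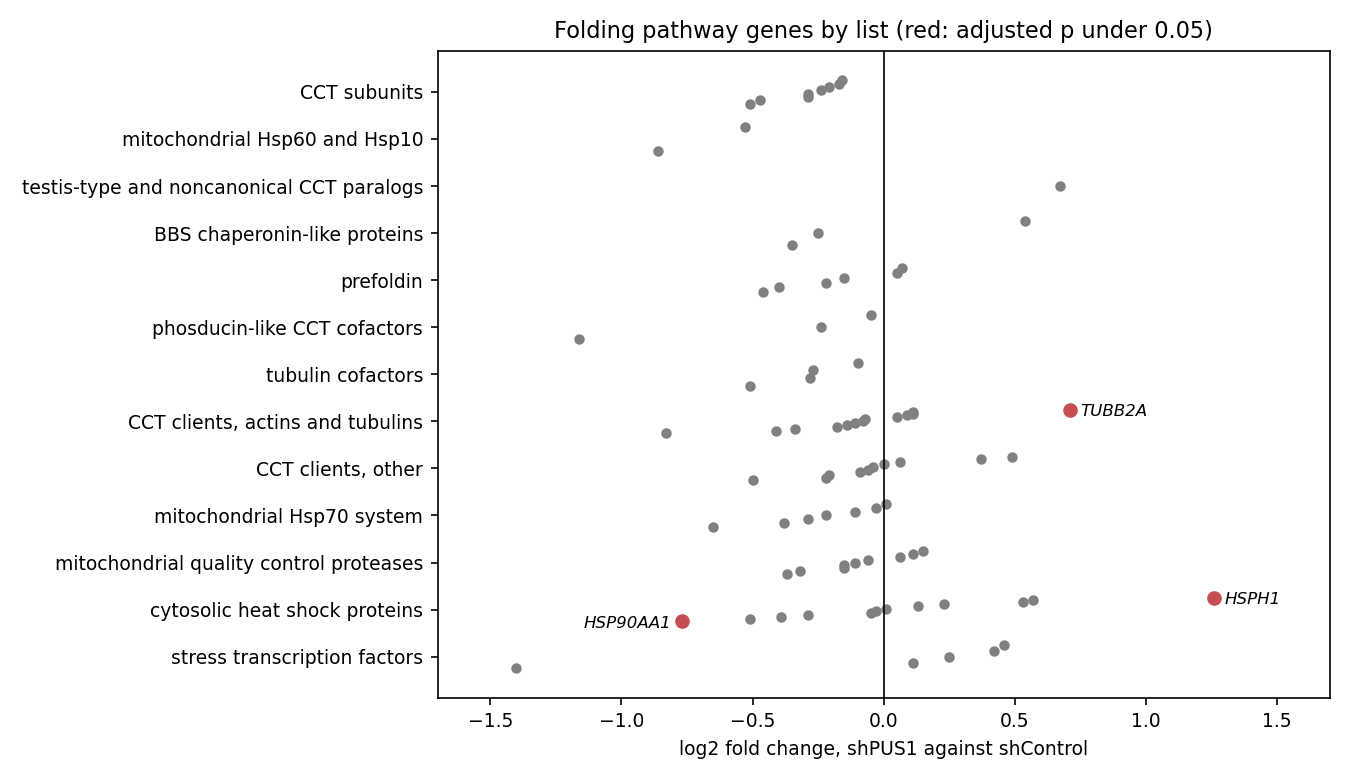
Log2 fold change of shPUS1 against shControl for every tested gene of the chaperonin and folding lists, 1 row per list and 1 point per gene, in red where the adjusted p was under 0.05. The 10 chaperonin genes in the top rows all lie left of 0 and none is red, and the red points are TUBB2A, HSPH1 and HSP90AA1.

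The genes most like the chaperonins were sought among 9742 genes with a mean of at least 10 CPM, by the root mean square difference of centred log2 CPM over the 6 libraries. Those nearest to the summed CCT genes were LDHB at 0.0284, BCCIP at 0.0392, DCAF13 at 0.0395, VDAC3 at 0.0421 and FBP1 at 0.0470, against a median of 0.308 for all genes compared. LDHB, a lactate dehydrogenase subunit, had 459, 575 and 345 CPM in shControl and 367, 357 and 385 CPM in shPUS1. Its highest library, like that of CCT, was shControl replicate 2. Those nearest to HSPD1 were SFXN4 at 0.0419, PTS at 0.0554, CDKN2C at 0.0560, MTIF2 at 0.0615 and PBK at 0.0657, against a median of 0.516. SFXN4, the nearest, had 19.1, 27.5 and 14.1 CPM in shControl and 10.2, 10 and 11.6 CPM in shPUS1. Adjusted p in edgeR for these 10 genes lay between 0.0623 and 0.472.

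Reads that could belong to another gene limit some of these values. The table lists 58 pseudogenes of 9 of the members, 18 of HSPD1 and 26 of HSPE1, and their summed counts were at most 1.33% of the parent gene's. In GENCODE 29 transcripts 6.71% of the 100-base stretches of HSPE1 occurred in another gene, among them HSPE1-MOB4, HSPE1P3 and HSPE1P2. For HSPD1 the share was 1.95%, and the partners were HSPD1P1, HSPD1P6 and HSPD1P4. The listed span of HSPD1 covers all 3310 bases of HSPE1 on the other strand and 1167 bases of MOB4. The read-through gene HSPE1-MOB4 had at most 49 counts in a library. MOB4 had a log2 fold change of -0.18 with an adjusted p of 0.418 in edgeR. TCP1 overlaps ACAT2 by 615 bases on the other strand, and ACAT2 was at -0.04 (0.19 without shControl replicate 2). The strand setting of the counting is not given in the sources used here, so in overlapping exons reads of both genes cannot be told apart. The snoRNA genes inside TCP1 (SNORA29 and SNORA20) and CCT6A (SNORA22B and SNORA15) had at most 2 counts over all libraries.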

How the data were processed

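Poly(A) RNA of 3 shControl and 3 shPUS1 libraries was measured. Per the submitters' processing notes, reads were handled with HISAT2 and HTSeq 0.6.1. The build, annotation, strandedness and treatment of multiply mapped reads are not given in the sources used here. The table holds, as deposited, estimated counts that the authors did not normalize, of which 29.8% to 31.8% of the nonzero values per library are not whole, and FPKM that the authors made per exonic length and library total. No replicates were pooled and 0 value columns were left unmapped.

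Rounded counts of genes kept by filterByExpr were given TMM factors, and edgeR 4.0.16 (R 4.3.3) ran its quasi-likelihood test on them. P was adjusted by Benjamini-Hochberg across all 14748 tested genes, and a gene was called at an adjusted p under 0.05. DESeq2 1.42.0 and limma 3.58.1, on log2(FPKM + 1) and log2(FPKM + 0.1) where mean FPKM reached 1 or as voom with sample weights, served as alternatives, as did other scaling, no filter, a replicate block and leaving out each library. The biological coefficient of variation was 0.22. Log2 CPM had a prior count of 2. The fit was tested on simulated data. Promoters came from RefSeq, and lengths of principal transcripts from GENCODE 29. Tables and plots were made in Python 3.11.15 with pandas 2.3.3, matplotlib 3.10.9, scipy 1.17.1 and numpy 2.4.6.

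Named are the 10 members, PUS1, from each other list the called genes (up to 4) and the most abundant one, the 5 genes most like each profile, and genes sharing reads. Genes that other fits called were added after their values were seen, and 1 cell type marker is not reported here. Members and lists were chosen with earlier results of these data known. Residuals of libraries with the same replicate number had correlations of -0.05, -0.03 and -0.19 across genes, so no effect shared by such libraries was seen. Whether they were infected or prepared together is not given in the labels. Precision rests on 3 libraries a group, and depth of 14241505 to 19625998 estimated counts.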

Additional observations from a re-analysis of the deposited data

How the results depend on the processing

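The number of called genes was 380 with all libraries (256 higher, 124 lower). It was 1284 without a filter on low counts, 1708 with DESeq2, 250 with limma on log2(FPKM + 0.1), 3090 with weighted libraries, 202 where a log2 fold of 1 or more in size was also asked for and 3758 at an unadjusted p under 0.05. Leaving out 1 library gave from 0 (without shPUS1 replicate 3, where 2581 genes had an unadjusted p under 0.05) to 2813 (without shControl replicate 2). Called chaperonin genes numbered 0 with all libraries, 1 without the filter and with DESeq2, 3 with weighted libraries and 3 at an unadjusted p. Leaving out 1 library gave from 0 to 1, with HSPD1 the gene called. Of the other folding genes 3 were called with all libraries, 6 with DESeq2, 10 with weighted libraries and, leaving out 1 library, from 0 to 11. With a replicate block 18 genes were called (18 higher), of which 0 were chaperonin genes and 0 other folding genes. For HSPD1 the block gave -0.81 on the log2 scale (adjusted p 0.149).

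PUS1 missed the threshold in 7 of 14 other fits, among them limma at -1.0 and -1.48 (adjusted p 0.0544 and 0.0514) and the replicate block at -1.55 (0.0969). Leaving out 1 library gave from -1.86 to -1.20, with the highest adjusted p, 0.253, without shPUS1 replicate 2. Leaving out 1 library moved CCT2 between -0.33 and 0.06 and CCT5 between -0.43 and 0.0016, with the sign reversed without shControl replicate 2. HSPH1, TUBB2A and HSP90AA1 each kept their direction in 14 other fits and missed the threshold in 5, 6 and 5 of them. Under principal transcript lengths the share of HSPD1 in the summed level of the 10 genes was 14.2% in shControl, against 7.92% in FPKM. The causes were not tested. The alternatives with weighted libraries and principal transcript lengths were chosen after seeing the data. For the counts of other folding genes, no alternative was planned before the data were seen. The count of members lower without overlap was 3 in CPM and in FPKM. Members had at least 1071 counts in each library, so 3 libraries a group set the precision more than depth.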
